A study of Homo sapiens with 9 samples.

Results

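NRF2, the transcription factor encoded by NFE2L2, its inhibitor KEAP1 and 7 genes that NRF2 is known to switch on were followed across the U87, GSCs and Diff cell lines. The genes were the rows of the deposited table that carry the symbols NFE2L2, KEAP1, NQO1, GCLC, GCLM, TXNRD1, SRXN1, SLC7A11 and HMOX1, 9 of 60606 genes in all. RNA was sequenced in 3 libraries per cell line, 9 libraries in total, and each level below is in TPM, a measure of transcript abundance that is divided by gene length and scaled to the same total in every library. U87 is an established human glioblastoma line, grown without irradiation in medium with 10% serum. GSCs are stem cells derived from U87, irradiated 13 times at 5 Gy, and kept without serum in a medium that holds B27 and 20 ng/ml each of EGF and bFGF. Diff cells are descendants of those irradiated GSCs, returned to 10% serum to differentiate and grown up from picked clonal colonies. GSCs therefore differed from U87 in irradiation, in derivation as stem cells and in medium at the same time, and Diff cells differed from U87 in irradiation, in their passage through the stem cell state and its medium, and in clonal origin. Diff cells and GSCs differed in medium, differentiation and clonal picking. Within each comparison these influences cannot be told apart. GSCs that were never irradiated were not analysed here.

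Under basal conditions KEAP1 hands newly made NRF2 to a CUL3 ubiquitin ligase, and NRF2 protein is degraded. Oxidants and electrophiles modify cysteines of KEAP1, NRF2 escapes, pairs with a small MAF protein (MAFF, MAFG or MAFK) and binds antioxidant response elements near genes for glutathione synthesis, thioredoxin reduction, quinone reduction and heme breakdown. BACH1 competes for many of the same elements. Because NRF2 is controlled mostly as a protein, the level of its mRNA does not report its activity, and protein was not part of these data.

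Antioxidant response elements share the core TGACNNNGC, in which N is any base. It was searched on both strands in RefSeq promoter windows (GRCh38.p14) that run from 250 bases before to 50 bases after a transcription start. Windows were found for 7 of the 9 genes, 10 windows in all, since some genes have several starts, and not for SLC7A11 and HMOX1. The core was found in 3 of these 7 genes (42.9%), against 16.1% of 27305 genes with a window and 19.2% of 11222 tested genes with a window. The 3 genes were GCLM, KEAP1 and TXNRD1. Their sites are shown because GCLM and TXNRD1 differed in opposite directions in the comparisons that involve GSCs. In GSCs against U87 the log2 fold change was 1.96 for GCLM and -0.93 for TXNRD1. In Diff cells against GSCs it was -2.62 and 0.77. In Diff cells against U87 both were negative, at -0.66 and -0.17, the latter with a limma adjusted p of 0.269. Both genes held matches of the core, but with different bases at N. Each site is written 5′ to 3′ on the strand of its gene. The 9 bases of the core are in capitals, with 10 bases on either side. A core that lies on the opposite strand is printed as its reverse complement.
GCLM, minus strand, chr1:93909446-93909474: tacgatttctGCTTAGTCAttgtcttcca
KEAP1, minus strand, chr19:10502784-10502812: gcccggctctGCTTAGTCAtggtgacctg
KEAP1, minus strand, chr19:10502807-10502835: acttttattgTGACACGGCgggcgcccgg
TXNRD1, plus strand, chr12:104286920-104286948: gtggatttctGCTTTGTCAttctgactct
TXNRD1, plus strand, chr12:104215670-104215698: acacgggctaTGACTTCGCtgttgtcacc
TXNRD1, plus strand, chr12:104215761-104215789: gcgtccttcgGCTCCGTCAgttcccacag
GCLM and KEAP1 carried the same 9 letters, GCTTAGTCA, 25 and 22 bases before a RefSeq start of each gene. Both KEAP1 sites are placed by the same start. These starts differ from the ends of the GENCODE gene coordinates given below. A match of the core is a description of the sequence, not evidence of a bound site, and windows of NFE2L2, NQO1, GCLC and SRXN1 held no match. Elements farther than 250 bases before a start were outside the search, so no match does not mean that a gene lacks the element. The AP-1 sites TGACTCA and TGAGTCA, which resemble part of the core, were in 0 of the 7 genes and in 6.05% of the 27305 genes.

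Differences were tested with limma on log2(TPM + 1) over the 22909 genes with a mean TPM over 1, with Benjamini-Hochberg adjustment within each of 3 comparisons. "Higher" or "lower" below means an adjusted p under 0.05, and a gene was called when its log2 fold change was also over 1 in size. Fold changes on this scale understate the change of genes with low TPM. The paper's supplement speaks in general of at least 3 biological replicates, without naming the RNA libraries. No source states that the libraries of a line came from separate cultures, so p-values measure the spread between these libraries, which may be technical. In bulk RNA, fewer cells that express a gene and less of its RNA per cell cannot be told apart. TPM holds no read depth, so the depth behind each value is unknown and the spread over 3 libraries was the measure of precision. Mitochondrial genes took 25.9% to 31.8% of the TPM and the RNA RN7SL1 took 5.73% to 9.79%.

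The labels were set beside marker genes, by RNA alone. For the stem cell label the paper itself reports immunofluorescence of CD133 (the protein of PROM1), SOX2 and FABP7 in GSCs, and protein was not measured here. Of 4 stem cell markers, SOX2 and PROM1 were below 1 TPM in every library, GSCs included, and were not tested. Both were still highest in GSCs without overlap. In U87, GSCs and Diff cells SOX2 averaged 0.0383, 0.879 and 0.153 TPM and PROM1 0.171, 0.507 and 0.0236 TPM. FABP7 was called higher than in U87 in GSCs and in Diff cells, at 0.731 ± 0.228 TPM in U87, 4.91 ± 0.796 in GSCs and 2.86 ± 0.378 in Diff cells (SD, n = 3). NES went the other way, at 33.0 ± 2.22, 22.6 ± 0.812 and 13.5 ± 1.02 TPM, lower in GSCs than in U87 (log2 fold change -0.53, limma adjusted p = 0.00047) and called lower in Diff cells (-1.23, adjusted p = 4.02e-06). The 4 markers together summed to 32.4 to 36.4 TPM in U87, 27.5 to 29.8 in GSCs and 15.6 to 17.3 in Diff cells. Most of each sum was NES, so the sums do not show the other 3 markers, which were highest in GSCs. Of 5 glial and neuronal markers 1 was called: MAP2, at 7.95 and 8.22 TPM in U87 and GSCs and 21.7 in Diff cells (log2 fold change 1.35 and 1.30, limma adjusted p = 2.01e-05 and 4.7e-05). GFAP was lower than in U87 in both derived lines (2.29, 0.809 and 0.909 TPM), S100B averaged under 1 TPM in each line, and OLIG2 (7.27, 8.75 and 5.37 TPM) and TUBB3 (3.74, 4.66 and 5.22 TPM) were not called.

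Of 8 markers of other cell types, the leukocyte gene PTPRC and the endothelial gene CDH5 were under 1 TPM in all 9 libraries. COL1A1, a collagen chain of fibroblasts and mesenchymal cells, was called in each comparison and averaged 497, 27.7 and 157 TPM in U87, GSCs and Diff cells (log2 fold change -4.12, -1.66 and 2.47, limma adjusted p = 2.18e-08, 3.83e-06 and 1.41e-06), the order of lines also seen for SLC7A11 and NQO1. The keratin gene KRT8 averaged 3.60, 1.12 and 0.691 TPM and was called lower than in U87 in both lines. Those 8 genes summed to 477 to 571 TPM in U87, 45.5 to 52.3 in GSCs and 174 to 185 in Diff cells, most of it COL1A1. ACTA2 (16.9, 9.96 and 17.0 TPM) was lower in GSCs than in the other lines and the endothelial gene PECAM1 (2.77, 6.25 and 2.92 TPM) higher, neither called, and CD68 (2.48, 2.28 and 2.25 TPM) and EPCAM (1.64, 1.18 and 1.30 TPM) had adjusted p-values over 0.05. Whether the cell states behind these markers had a part in the results below was not tested.

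The 9 genes did not move as a block. In GSCs, SLC7A11 and NQO1 were called lower than in U87 and HMOX1 and GCLM were called higher, 4 of the 8 genes tested, where 17.1% of all tested genes were called (9.52% higher and 7.53% lower). For the Diff line against U87, SLC7A11 was called lower and HMOX1 higher, 2 of 8 against 12.3% of all genes (5.92% higher and 6.36% lower). Between Diff cells and GSCs, SLC7A11 was called higher and GCLM lower in the differentiated line, 2 of 8 against 8.01% of all genes (2.66% higher and 5.36% lower). By adjusted p alone, 7, 6 and 5 of the 8 genes differed in these comparisons, where 48.6%, 39.4% and 34.8% of all genes did, and the libraries of the paired lines did not overlap for 7, 6 and 5 of them, against 55.8%, 55.2% and 46.7% of all genes. The median log2 fold change of the 8 genes was -0.20, -0.04 and 0.43, and that of all tested genes was 0.02, -0.04 and -0.06. The comparisons share libraries (U87 is the control of GSCs and of Diff cells), so their values are given side by side.

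NFE2L2 (ENSG00000116044, chr2:177227595-177392697, minus strand; gene coordinates are those of GENCODE 29 on GRCh38) stood at nearly the same level in the 3 lines. It measured 31.2, 31.1 and 31.6 TPM in U87, 28.7, 26.6 and 33.4 in GSCs and 34.1, 31.3 and 34.1 in Diff cells. GSCs were the most scattered, with 2 libraries below all of U87 and 1 above. The log2 fold change was -0.09 in GSCs against U87 (95% interval -0.28 to 0.10, limma adjusted p = 0.42), 0.08 in Diff cells against U87 (-0.11 to 0.27, adjusted p = 0.498) and 0.17 in Diff cells against GSCs (-0.02 to 0.35, adjusted p = 0.159). These intervals leave room for changes of up to 0.35 on the log2 scale. Without GSCs replicate 3, the highest of its line, NFE2L2 was lower in GSCs than in U87 (log2 fold change -0.18, limma adjusted p = 0.0365) and higher in Diff cells than in GSCs (0.25, adjusted p = 0.0115), and scaling by median ratios also brought the latter under 0.05 (0.23, adjusted p = 0.0268). Of its exon bases, 17.6% lie also in exons of AC019080.1 on the same strand, which averaged 2.08, 3.06 and 2.04 TPM in U87, GSCs and Diff cells.

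KEAP1 (ENSG00000079999, chr19:10486120-10503741, minus strand), the adaptor that presents NRF2 for degradation, was highest in Diff cells. Its levels were 38.7, 32.1 and 38.4 TPM in U87, 28.7, 31.99 and 26.9 in GSCs and 51.8, 48.1 and 43.9 in Diff cells. Every Diff library was above every other library, and the highest GSCs library was just under the lowest of U87. KEAP1 was higher in Diff cells than in U87 (log2 fold change 0.39 ± 0.0983 SE, limma adjusted p = 0.0126) and than in GSCs (0.70 ± 0.0983, adjusted p = 0.000818), and lower in GSCs than in U87 (-0.31 ± 0.0983, adjusted p = 0.0298). The last difference missed 0.05 when only those 2 lines were fitted (adjusted p = 0.0501), and without GSCs replicate 1 or 3 or U87 replicate 1 or 3 (adjusted p = 0.0767 to 0.101).

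The other regulators and partners of NRF2, 15 genes that were all tested, mostly differed by less than the limit for a call. Limma called 0 between GSCs and U87 and 0 between Diff cells and GSCs (6 of 15 had an adjusted p, and 6 an unadjusted p, under 0.05 in each), and 2 were called between Diff cells and U87, close to the 12.3% called over all tested genes. In the comparisons that called 0, 17.1% and 8.01% of all tested genes were called, and 48.6% and 34.8% had an adjusted p under 0.05. SQSTM1, whose protein p62 draws KEAP1 into autophagy and is itself an NRF2 target, was 77.8, 121 and 165 TPM on average in U87, GSCs and Diff cells and was called higher in Diff cells than in U87 (log2 fold change 1.09 ± 0.135 SE, limma adjusted p = 0.000256). MAFF, a small MAF partner, averaged 14.9, 10.7 and 4.92 TPM and was called lower in Diff cells (-1.43 ± 0.0735, adjusted p = 1.45e-06). The list's median log2 fold change was 0.07, 0.06 and 0.00 in the 3 comparisons. BACH1, the competitor of NRF2, and CUL3, the ligase scaffold, fall outside the rule for named genes and were chosen after their values were seen. BACH1 averaged 37.5, 39.5 and 27.7 TPM and was lower in Diff cells than in U87 (-0.43 ± 0.107, limma adjusted p = 0.0126), while CUL3 averaged 19.7, 19.9 and 19.6.

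Glutathione synthesis begins with cystine import. SLC7A11 (ENSG00000151012, chr4:138164097-138242349, minus strand) encodes xCT, the subunit of the cystine/glutamate antiporter that carries the substrate, and it had the largest fold changes against U87 among the 8 tested genes. It measured 49.99, 42.3 and 52.1 TPM in U87, 1.66, 0.99 and 1.52 in GSCs and 5.78, 4.999 and 7.29 in Diff cells. The 3 lines did not overlap, with U87 far above Diff cells and Diff cells above GSCs. The mean in U87 was 34.7 times that in GSCs and 7.99 times that in Diff cells, and the mean in Diff cells was 4.34 times that in GSCs. SLC7A11 was called lower in GSCs than in U87 (log2 fold change -4.37 ± 0.158 SE, limma adjusted p = 1.36e-07), lower in Diff cells than in U87 (-2.81 ± 0.158, adjusted p = 2.41e-06) and higher in Diff cells than in GSCs (1.55 ± 0.158, adjusted p = 0.000139). Of its exon bases, 8.97% are shared with SLC7A11-AS1 on the opposite strand, which averaged 1.79 ± 0.555, 0.154 ± 0.0542 and 0.275 ± 0.0257 TPM in U87, GSCs and Diff cells. The setting for strand in the counting is not given in the sources used here, so reads of the overlap may be split between these genes in an unknown way. SLC3A2, the heavy chain that holds xCT in the membrane and also serves other amino acid transporters, averaged 97.9, 62.4 and 66.3 TPM and was not called (log2 fold change -0.64 and -0.55 against U87, limma adjusted p = 0.000224 and 0.000726), a gene chosen after its values were seen.

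Glutamate-cysteine ligase, the rate-limiting enzyme of glutathione synthesis, consists of the catalytic subunit GCLC and the modifier subunit GCLM, and their transcripts diverged. GCLC (ENSG00000001084, chr6:53497341-53616970, minus strand) was 11.1, 10.7 and 9.86 TPM in U87, 15.2, 15.9 and 19.5 in GSCs and 18.7, 16.1 and 16.9 in Diff cells. All 6 libraries of GSCs and Diff cells were above all of U87, and the former lines overlapped each other. GCLC was higher than in U87 by 0.62 ± 0.106 SE on the log2 scale in GSCs (limma adjusted p = 0.0012) and by 0.66 ± 0.106 in Diff cells (adjusted p = 0.00118), and the difference between Diff cells and GSCs was 0.03 (95% interval -0.21 to 0.27, adjusted p = 0.843).

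GCLM (ENSG00000023909, chr1:93885205-93909456, minus strand) measured 19.4, 17.4 and 17.8 TPM in U87, 71.5, 63.1 and 87.9 in GSCs and 11.97, 10.4 and 11.2 in Diff cells. GSCs were far above the other lines and Diff cells were below U87, without overlap. The GSCs mean was 4.07 times that of U87 and 6.64 times that of Diff cells. GCLM was called higher in GSCs than in U87 (log2 fold change 1.96 ± 0.116 SE, limma adjusted p = 2.12e-06) and lower in the Diff line than in GSCs (-2.62 ± 0.116, adjusted p = 1.84e-06), and it was lower in Diff cells than in U87 by less than the limit for a call (-0.66 ± 0.116, adjusted p = 0.00199).

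The ratio of GCLM to GCLC, a ratio chosen after its values were seen and therefore not tested, was 1.75, 1.63 and 1.80 in U87, 4.71, 3.97 and 4.49 in GSCs and 0.641, 0.644 and 0.663 in Diff cells. In TPM the modifier subunit thus stood above the catalytic subunit in U87 and GSCs and below it in Diff cells. The gene lengths used for TPM are not given in the sources used here. Whether the ratio is over or under 1 depends on them, so it does not show which transcript was more abundant. With lengths fixed per gene, the ratio can be compared between lines. Within a line the ratio varied little, with an SD of 0.0896, 0.379 and 0.0121 around means of 1.73, 4.39 and 0.649.

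**Figure D1:**
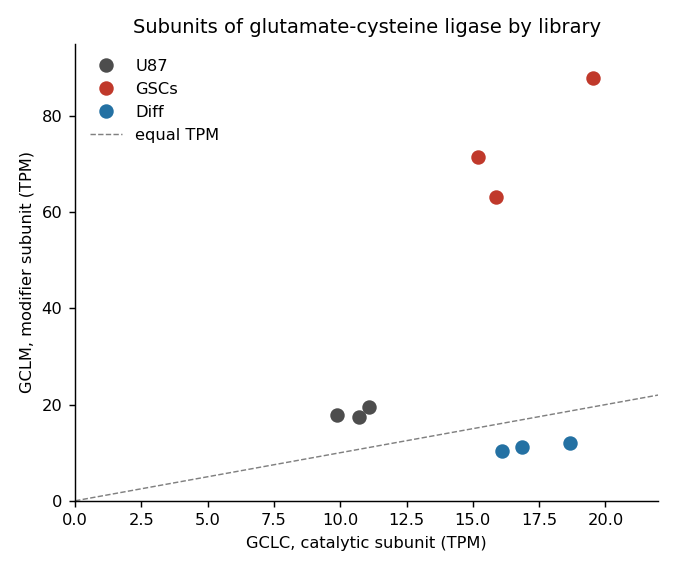
GCLM against GCLC in TPM (both axes linear from 0); each point is a library and the dashed line marks equal TPM. Equal TPM depends on the gene lengths used, which are not given, and need not mean equal numbers of transcripts. The 3 Diff libraries lie under the line with 10.4 to 11.97 TPM of GCLM, and the 3 GSCs libraries lie far above it at a GCLC level that overlaps theirs.

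The other genes of glutathione synthesis and use gave 19 rows of a list of 20, of which 15 were tested. Between GSCs and U87 1 was called higher and 2 lower, between Diff cells and U87 2 higher and 1 lower, and between Diff cells and GSCs 1 lower. In the comparisons with U87 that is 3 of 15, not far from the 17.1% and 12.3% called over all tested genes. Between Diff cells and GSCs 8.01% of all tested genes were called. CHAC1, which degrades glutathione, averaged 38.6 TPM in U87, 3.11 in GSCs and 4.60 in Diff cells (log2 fold change -3.28 and -2.76 against U87, limma adjusted p = 4.25e-05 and 0.000167). GSR, which regenerates reduced glutathione, averaged 49.4, 22.8 and 35.9 TPM and was called lower in GSCs (-1.09 ± 0.0824 SE, adjusted p = 9.09e-06). The transferase GSTO1 averaged 90.2, 217 and 184 TPM and was called higher in GSCs (1.26 ± 0.0621, adjusted p = 7.41e-07) and in Diff cells (1.02 ± 0.0621, adjusted p = 3.72e-06). GSTM4 was called higher in Diff cells than in U87 (1.21 ± 0.0704, limma adjusted p = 2.92e-06), a value that is uncertain because its near-identical paralogs can share reads, and GSTA4 was called lower in Diff cells than in GSCs (-1.21 ± 0.135, adjusted p = 0.00023). The list's median log2 fold change was 0.24, -0.10 and -0.07.

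TXNRD1 (ENSG00000198431, chr12:104215779-104350305, plus strand) encodes the cytosolic reductase that keeps thioredoxin reduced with electrons from NADPH. It was 65.3, 69.0 and 54.3 TPM in U87, 30.4, 29.8 and 37.0 in GSCs and 57.2, 52.3 and 57.6 in Diff cells. GSCs were below all other libraries, whereas U87 and Diff cells overlapped. TXNRD1 was lower in GSCs than in U87 (log2 fold change -0.93 ± 0.109 SE, limma adjusted p = 0.000131) and higher in Diff cells than in GSCs (0.77 ± 0.109, adjusted p = 0.000848), both under the limit for a call, and Diff cells differed from U87 by -0.17 (95% interval -0.41 to 0.08, adjusted p = 0.269). Without GSCs replicate 3 or without U87 replicate 3 the difference between GSCs and U87 passed the limit (to -1.03), which raised the number of called genes in that comparison to 5.

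SRXN1 (ENSG00000271303, chr20:646615-653370, minus strand), sulfiredoxin, repairs overoxidized peroxiredoxins. It was listed at 0.239, 0.114 and 0.0501 TPM in U87, 0, 0.0517 and 0.0658 in GSCs and 0.276, 0.432 and 0.164 in Diff cells. All values were under 1 TPM, so SRXN1 did not pass the filter on mean TPM. Diff cells were above GSCs without overlap, and without the filter that difference had a log2 fold change of 0.31 ± 0.0896 SE (limma adjusted p = 0.0465), while those against U87 had adjusted p = 0.369 in GSCs and 0.201 in Diff cells. Exons of AL121758.1, a gene on the same strand, cover 85.0% of its exon bases, and that gene too was listed at 0.204, 0.150 and 0.136 TPM on average. How reads that fall in both genes were counted is not given in the sources used here, so these values cannot be read as a low level of SRXN1 RNA.

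The 9 other genes of the thioredoxin system were all tested. TXNIP, which binds and inhibits thioredoxin, was called higher in GSCs than in U87 (1142 against 493 TPM, log2 fold change 1.21 ± 0.0639 SE, limma adjusted p = 1.1e-06) and lower in Diff cells (485 TPM) than in GSCs (-1.23 ± 0.0639, adjusted p = 3.61e-06). GLRX, glutaredoxin, was called lower in Diff cells than in GSCs (-1.01 ± 0.0682, adjusted p = 1.44e-05). No other gene of this list was called in any comparison. Of 6 genes for NADPH supply 5 were tested and limma called 0 in each comparison (3, 2 and 1 had an adjusted p, and 3, 2 and 4 an unadjusted p, under 0.05). Beside both lists, 17.1%, 12.3% and 8.01% of all tested genes were called. An adjusted p under 0.05 was found for 48.6%, 39.4% and 34.8% of all tested genes.

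NQO1 (ENSG00000181019, chr16:69706996-69726951, minus strand), a quinone reductase often used as a readout of NRF2, was lower in both irradiated lines. It measured 101, 97.9 and 96.8 TPM in U87, 39.8, 41.0 and 47.0 in GSCs and 68.9, 69.9 and 73.8 in Diff cells. The lines did not overlap and stood in the order U87, Diff cells, GSCs. NQO1 was called lower in GSCs than in U87 (log2 fold change -1.20 ± 0.0672 SE, limma adjusted p = 1.52e-06), was lower in Diff cells than in U87 under the limit for a call (-0.47 ± 0.0672, adjusted p = 0.000578) and higher in Diff cells than in GSCs (0.72 ± 0.0672, adjusted p = 8.16e-05). An antisense gene, AC092115.2, covers 17.7% of its exon bases and was listed at 0 in all 9 libraries.

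Of 12 other genes for the detoxification of carbonyls and quinones, 10 were tested. In GSCs 3 were called lower than in U87 and none higher, in Diff cells likewise 3 were called lower and none higher, and 1 was called lower when Diff cells were set against GSCs. Over all tested genes 7.53%, 6.36% and 5.36% were called lower in these comparisons. The list's median log2 fold change was -0.49, -0.32 and -0.06. AKR1B10, an aldo-keto reductase, averaged 14.5 TPM in U87, 3.84 in GSCs and 3.66 in Diff cells (log2 fold change -1.68 and -1.73 against U87, limma adjusted p = 2.97e-06 and 3.79e-06). AKR1C3 was called lower in GSCs (-1.22, adjusted p = 0.00154) and in Diff cells (-1.41, adjusted p = 0.000885), and AKR1C1 was called lower in Diff cells than in U87 (-1.94, adjusted p = 0.00019) and than in GSCs (-1.56, adjusted p = 0.00102). These aldo-keto reductases have close paralogs that can share reads, so their values are uncertain. EPHX1, the microsomal epoxide hydrolase, averaged 63.1, 26.7 and 51.9 TPM and was called lower in GSCs (-1.22 ± 0.0703 SE, limma adjusted p = 1.84e-06).

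HMOX1 (ENSG00000100292, chr22:35380361-35394214, plus strand), heme oxygenase 1, which opens heme into biliverdin, iron and carbon monoxide, was the most abundant of the 9 transcripts in every library. It measured 306, 338 and 216 TPM in U87, 982, 912 and 777 in GSCs and 711, 799 and 802 in Diff cells. All 6 libraries of GSCs and Diff cells were above all of U87, and those lines overlapped. HMOX1 was called higher in GSCs than in U87 (3.10 times the mean, log2 fold change 1.65 ± 0.159 SE, limma adjusted p = 3.98e-05) and higher in Diff cells than in U87 (2.69 times, 1.45 ± 0.159, adjusted p = 0.000123). Diff cells differed from GSCs by -0.20 (95% interval -0.57 to 0.16, adjusted p = 0.364). The ratio of HMOX1 to NQO1 TPM, again chosen after its values were seen, was 2.90 ± 0.617 in U87, 21.2 ± 4.17 in GSCs and 10.9 ± 0.564 in Diff cells (SD, n = 3).

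The other genes of heme and iron handling that NRF2 is known to control gave 7 tested of 8. In GSCs 2 were called higher than in U87, in Diff cells 3, and 1 was called higher in Diff cells than in GSCs, with none called lower in any comparison. By adjusted p alone 4, 4 and 2 of the 7 were higher and 2, 1 and 2 lower. Among all tested genes 9.52%, 5.92% and 2.66% were called higher. By adjusted p alone 48.6%, 39.4% and 34.8% of them differed in either direction. The list's median log2 fold change was 0.52, 1.00 and 0.30. FTL, ferritin light chain, averaged 9835, 31262 and 20807 TPM in U87, GSCs and Diff cells and was called higher in GSCs (log2 fold change 1.67 ± 0.13 SE, limma adjusted p = 1.07e-05) and in Diff cells (1.09 ± 0.13, adjusted p = 0.000205). FTH1, ferritin heavy chain, averaged 1767, 2740 and 5790 TPM and was called higher in Diff cells than in U87 (1.71 ± 0.15, limma adjusted p = 3.24e-05) and than in GSCs (1.09 ± 0.15, adjusted p = 0.000717). Both ferritin genes have many processed pseudogenes that can share reads. BLVRA, biliverdin reductase, which acts on the product of HMOX1, averaged 30.6, 63.5 and 65.1 TPM and was called higher in GSCs (1.02 ± 0.101, limma adjusted p = 4.66e-05) and in Diff cells (1.06 ± 0.101, adjusted p = 5.16e-05).

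**Figure D2:**
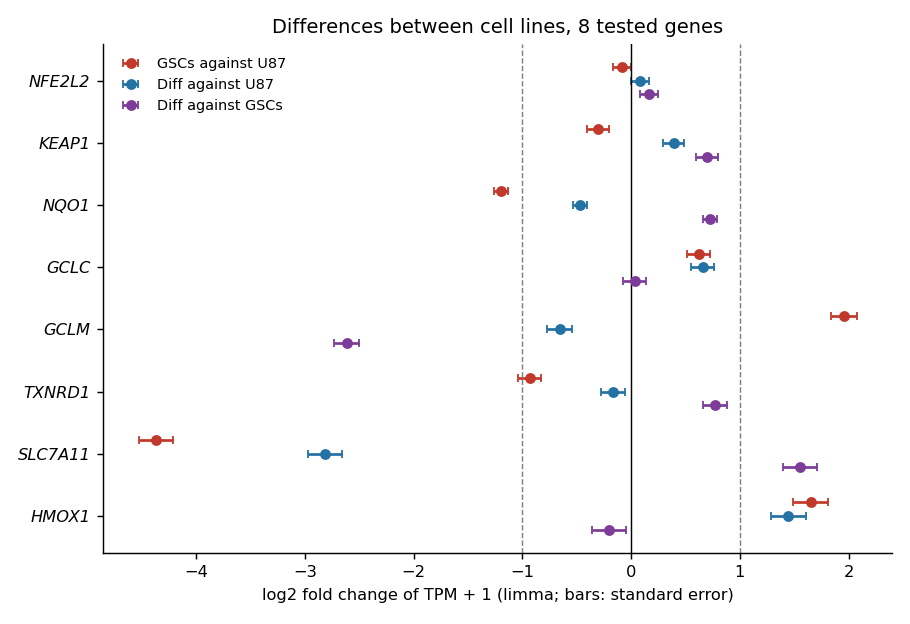
Log2 fold change of TPM + 1 (horizontal axis) for the 8 tested genes in GSCs against U87 (red), Diff cells against U87 (blue) and Diff cells against GSCs (purple); bars are the standard error and dashed lines mark the limit of 1 for a call. SLC7A11 lies at -4.37 and -2.81 against U87, HMOX1 at 1.65 and 1.45, and GCLM at 1.96 in GSCs and -0.66 in Diff cells.

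Among 6 further NRF2 targets of mixed function, limma called 0 between GSCs and U87 (4 had an adjusted p, and 4 an unadjusted p, under 0.05). Of all tested genes 17.1% were called in that comparison and 48.6% had an adjusted p under 0.05. ABCC2, an efflux pump for glutathione conjugates, averaged 27.3, 30.7 and 78.8 TPM in U87, GSCs and Diff cells and was called higher in Diff cells than in U87 (log2 fold change 1.51 ± 0.122 SE, limma adjusted p = 1.98e-05) and than in GSCs (1.34 ± 0.122, adjusted p = 7.38e-05). ABCC3, a related pump, averaged 26.4, 19.5 and 44.3 TPM and was called higher in Diff cells than in GSCs (1.15 ± 0.104, adjusted p = 7.26e-05).

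Some of the 9 genes are also targets of other factors, and SLC7A11 is known to respond to ATF4, the factor of the amino acid response, so a list of ATF4 and 14 genes of its response was described in the same way. Of these 15 genes 14 were tested. In GSCs 10 were called lower than in U87 and 1 higher, in Diff cells 9 were called lower and none higher, and between Diff cells and GSCs 3 were called higher and 2 lower in Diff cells. By adjusted p alone 2, 1 and 6 of the 14 were higher and 11, 10 and 3 lower. Of all tested genes 7.53%, 6.36% and 5.36% were called lower and 9.52%, 5.92% and 2.66% higher. By adjusted p alone 48.6%, 39.4% and 34.8% of all tested genes differed in either direction. The list's median log2 fold change was -1.88, -1.58 and 0.25, against 0.02, -0.04 and -0.06 over all tested genes. SLC7A5, a transporter of large neutral amino acids, measured 458, 436 and 353 TPM in U87, 14.8, 15.1 and 11.04 in GSCs and 31.9, 37.2 and 44.8 in Diff cells. Like SLC7A11 it stood in the order U87, Diff cells, GSCs without overlap, and it was called in each comparison (log2 fold change -4.83, -3.42 and 1.41, limma adjusted p = 8.04e-08, 8.47e-07 and 0.000247). PSAT1, an enzyme of serine synthesis, averaged 348, 19.7 and 76.3 TPM in U87, GSCs and Diff cells (-4.06, -2.16 and 1.90, limma adjusted p = 2.44e-07, 1.37e-05 and 5.45e-05).

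Further genes of the ATF4 list were also called lower against U87. VLDLR, DDIT4 and TRIB3, an inhibitor of ATF4, were each called lower in both GSCs and Diff cells. For TRIB3 the log2 fold change was -3.21 in GSCs and -2.53 in Diff cells (limma adjusted p = 8.03e-07 and 4.77e-06). It was -3.02 and -3.00 for VLDLR (adjusted p = 5.13e-07 and 8.62e-07) and -2.31 and -4.24 for DDIT4 (adjusted p = 2.35e-05 and 1.04e-06). DDIT4 was also called lower in Diff cells than in GSCs (-1.93, adjusted p = 0.000175). ATF4 itself averaged 401 ± 37.4 TPM in U87, 191 ± 20.3 in GSCs and 173 ± 11.998 in Diff cells (SD, n = 3), a gene named after its values were seen (-1.07 and -1.20 against U87, limma adjusted p = 2.66e-05 and 1.84e-05). ATF3, a stress-induced factor, was the gene called higher in GSCs than in U87 (29.9 against 7.50 TPM, 1.86 ± 0.106 SE, limma adjusted p = 1.74e-06), and Diff cells were below GSCs (6.65 TPM, -2.01 ± 0.106, adjusted p = 4.13e-06). Whether ATF4 or the media had a part in the level of SLC7A11 was not tested.

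The lines may differ in the copy number of chromosome segments, which RNA alone cannot show, so each gene was set beside its 24 nearest tested genes, 12 on each side in the RefSeq order. SLC7A11 was below all 24 neighbours in both comparisons with U87, where the neighbours had medians of 0.03 and -0.13 and lowest values of -1.04 and -1.07, and above all 24 in Diff cells against GSCs. GCLM was above all 24 in GSCs against U87 (neighbour median 0.05) and below all 24 in Diff cells against GSCs (-0.12), each time with a neighbour close behind (1.81 and -2.59). TXNRD1 was below all 24 in GSCs against U87, and NQO1 was below 23 of 24. HMOX1 was above 22 of 24 and 23 of 24 neighbours in the comparisons of GSCs and of Diff cells with U87, with neighbour medians of -0.03 and -0.05. The neighbours of NFE2L2 had medians of -0.31 and -0.41 against U87, both lower than the gene's own -0.09 and 0.08. Copy number itself was not tested.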

How the data were processed

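The authors deposited a single table of log2(TPM + 1) per gene and library; each of the 9 columns was turned back to TPM, and RN7SL1 and mitochondrial genes were kept. The submitters' processing notes name FastQC 0.11.9, Trimmomatic 0.39, HISAT2 2.2.1, featureCounts 2.0.5, R 4.2.0 and the build GRCh38, without roles; annotation, strand setting and handling of shared reads are not given in the sources used here. The records describe ribosomal RNA removal and a directional library, whereas the paper's methods describe selection with oligo(dT). Read depth is unknown.

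The 22909 of 60606 genes whose mean TPM exceeded 1 entered limma (version 3.58.1, R 4.3.3, eBayes with a trend) on log2(TPM + 1), in a fit of all 3 groups without covariates, with Benjamini-Hochberg adjustment within each comparison. A gene was called at an adjusted p under 0.05 and a log2 fold change over 1 in size. In simulated data for GSCs against U87, 173 of 200 genes with a log2 change of 2 were called, with 2 false calls among 22909 genes. The simulated noise was normal and independent between libraries and genes. The simulation thus checks that the fit runs as intended and does not measure the error rate of the real calls. Other steps used Python 3.11.15 with matplotlib 3.10.9, numpy 2.4.6 and pandas 2.3.3. Gene coordinates and exon overlaps came from GENCODE 29, promoter windows and gene order from RefSeq.

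The 9 genes and the related lists, which were written from general knowledge and are not copies of published sets, were chosen with earlier results of these data known, and no test was made over a list. Besides the 9 genes, the text names the called genes with the largest change, up to 3 per list and comparison, and for each tested gene the 2 protein-coding genes with the highest Pearson r. Alternatives changed the pseudocount, filter, scaling, fit, call rule and libraries, and used replicate numbers as a block.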

Additional observations from a re-analysis of the deposited data

Results flagged for a closer look

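GCLM and SLC7A11 were the 2 of the 8 genes called in the direct comparison of Diff cells and GSCs. Their differences from U87 were thus not the same in those lines. This was not particular to them: NQO1 (0.72), TXNRD1 (0.77) and KEAP1 (0.70) also differed, under the limit for a call (limma adjusted p = 8.16e-05, 0.000848 and 0.000818). The p-values below come from the comparison that picked the 2 genes, so they are no separate test. For GCLM the log2 fold change against U87 was 1.96 in GSCs and -0.66 in Diff cells, a difference of -2.62 ± 0.116 SE (limma adjusted p = 1.84e-06), with all 3 GSCs libraries above and all 3 Diff libraries below U87. For SLC7A11 it was -4.37 in GSCs and -2.81 in Diff cells, a difference of 1.55 ± 0.158 SE (limma adjusted p = 0.000139), with all 6 libraries below U87.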

How the results depend on the processing

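Of the 20 alternatives, the call rule by adjusted p alone leaves the values of a gene unchanged and was not counted for them. Of the rest, 16 apply to each comparison. Under these, 373 of 384 values for the 8 genes kept their direction and their side of an adjusted p of 0.05. The exceptions for KEAP1 and NFE2L2 are given beside those genes, and the others were of GCLC. The difference of GCLC between Diff cells and GSCs, which was not significant, ranged from -0.0349 to 0.137 when libraries were left out in turn. The changed call of TXNRD1, given beside that gene, involved no change of direction or side. The numbers of called genes among the 8 ranged from 4 to 5 in GSCs against U87, and were 2 in both other comparisons, when libraries were left out; over all tested genes they ranged from 3797 to 3980, from 2755 to 2811 and from 1773 to 1907, beside 3908, 2812 and 1836. By adjusted p alone they were 7, 6 and 5 of the 8 genes and 11129, 9024 and 7982 of all genes, and with a filter at a mean TPM over 5 they were 2254, 1583 and 1038 of all genes, a change that follows from the rule or the genes tested. With a pseudocount of 0.1 the log2 fold change of SLC7A11 was -5.04 between GSCs and U87 and 2.05 between Diff cells and GSCs. Replicate numbers did not mark shared cultures or days in the labels, and deviations of libraries with the same number correlated at -0.0416 to 0.0489 across genes. No shared deviation was thus seen over the genes as a whole. A correlation over all genes cannot exclude a shared culture or day that affects few genes. With the replicate block 4, 2 and 2 of the 8 genes and 3917, 2810 and 1831 of all genes were called, and no value of the 8 genes changed its side. TPM keeps no depth, so counting error could not be separated from the spread, and SRXN1 was tested only without the filter on mean TPM.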

Other observations

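For each of the 8 tested genes, the protein-coding genes whose log2 levels followed it most closely over the 9 libraries were sought among 9718 genes with a mean TPM over 5. Pearson's r is a description here: the 9 libraries fall into 3 lines, so many genes reach a high value. RGS2, a regulator of G protein signaling, followed GCLM most closely (r = 0.998), at 23.1 ± 0.176 TPM in U87, 140 ± 37.0 in GSCs and 11.2 ± 0.933 in Diff cells (SD, n = 3), and RNF24 came next (r = 0.998). For SLC7A11 they were ANKRD52 (r = 0.997) and EFNB2 (r = 0.996), an ephrin at 67.0, 12.5 and 25.1 TPM, and 467 genes had an r over 0.95. For NQO1 they were AGO1 and ID2 (both r = 0.998), the latter at 93.0, 15.4 and 47.5 TPM, and 436 genes had an r over 0.95. ARHGAP27 (r = 0.993) and ABRACL (r = 0.991) followed HMOX1, CPLANE1 (r = 0.992) and ANAPC1 (r = 0.991) followed GCLC, and AAK1 and KIF1B (both r = 0.993) followed TXNRD1. KEAP1 was followed by PPARD (r = 0.983) and KANSL3 (r = 0.977) with 35 genes over 0.95, and NFE2L2, which varied least between lines, by SOCS4 (r = 0.981) and ZMYM1 (r = 0.964) with 7.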
